A study of Mus musculus with 16 samples.

Results

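The positional axon guidance genes are 7 mouse genes, chosen by symbol: the receptor genes Nrp1, Nrp2, Plxna1 and Robo2 and the ligand genes Sema3a, Sema3f and Slit1. Of these, 6 matched a probe set, 1 each, among the 19505 genes measured, and Nrp1 was not analysed here. Neuropilins bind class 3 semaphorins and plexins carry the signal into the cell, while Robo receptors bind Slit ligands, so that an axon turns away from or grows along a source of ligand. In the olfactory system these molecules place the axons of sensory neurons on the olfactory bulb. Nrp1 and Sema3a act mainly along its front-to-back axis, with levels set by cAMP signalling from the odorant receptor, and Nrp2, Sema3f, Robo2 and Slit1 act mainly along its top-to-bottom axis.

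RNA came from cells of the olfactory mucosa sorted by fluorescence from S100a5-tauGFP mice, in which a GFP reporter follows the activity-dependent gene S100a5, so GFP marks cells by reporter level and not by receptor or position. All 4 groups carry the reporter: GFP+ and GFP- cells of mice given octanol, and GFP+ and GFP- cells of mice given filtered air, here called vehicle. The 24 mice, of both sexes and 7 to 12 weeks old, stayed 40 h alone in a clean-air chamber, and octanol or filtered air was pulsed for 10 s every 20 min from 26 h on. Each group holds 4 arrays, and each array holds RNA of 3 pooled mice, so a value is a pool's and not an animal's. Arrays that share an exposure and a number were taken as the fractions of a single pool, which the count of mice implies and the labels do not state.

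The sort and the tissue were checked first. The reporter's own gene S100a5 exceeded its GFP- level in all 4 pools of each exposure, with GFP+ minus GFP- differences of 0.82 log2 (vehicle) and 0.86 (octanol; adjusted p = 6.38e-04 and 4.61e-04, limma). Omp, the marker of mature olfactory sensory neurons, averaged between 18.10 and 18.22 log2 in the 4 groups, with no call between fractions (adjusted p = 0.613 and 0.348, limma). Those means lie near the highest signal on any array, 18.70, and whether signals were saturated there was not tested. Of 8 mature neuron markers 2 were higher in GFP+ cells after vehicle and 3 after octanol, and 0 lower (limma; their lowest differences were 0.03 and 0.03). That count turned with scaling: 8 of 8 were higher after both exposures with arrays centred on their median, where 12759 and 11401 of 19505 genes were. With arrays centred on odorant receptors, 0 were higher and 3 lower after octanol, where 536 and 8740 of all genes were. Of 7 immature neuron markers, 4 were lower after each exposure and 1, Ncam1, was higher after octanol (0.31). After both exposures, 4 of 4 progenitor, 5 of 5 microvillar, 4 of 5 sustentacular, 6 of 6 myeloid and 4 of 4 neutrophil markers were lower in GFP+ cells. Horizontal basal cell markers and the endothelial genes Cdh5, Kdr, Tek, Emcn and Cldn5 averaged under background in every group. Pecam1, the other endothelial marker, averaged above background in both GFP- groups and under it in both GFP+ groups. It was lower in GFP+ cells after both exposures (-0.93 and -0.67, limma). Background is 6.32 log2, the 95th percentile of 319 vomeronasal receptor genes. All 6 guidance genes lay above it on all 16 arrays.

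Of the 6 guidance genes, Slit1 was higher in GFP+ than in GFP- cells after both exposures, Sema3f after octanol, and Sema3a was lower after vehicle by a narrow margin. Nrp2, Plxna1 and Robo2 passed the test after neither exposure. After vehicle, 1 gene of 6 was higher, where 14.7% of all genes were, and 1 was lower, where 13.5% were. After octanol, 2 were higher against 16.7% of all genes, and 0 lower against 13.2% (limma; the unadjusted p of Sema3a, the 1 negative difference, was 0.089). In either direction this made 2 of 6 after each exposure, against 28.2% and 29.9% of all genes. At an unadjusted p under 0.05 there were 2 of 6 and 3 of 6, against 40.6% and 41.6%, and 1 of 6 and 3 of 6 had 1 sign in all 4 pools, against 47.7% and 47.3%. The median difference of the guidance genes was 0.16 log2 after vehicle and 0.23 after octanol, beside 0.13 and 0.14 over all genes. In bulk samples such as these, fewer cells of a type and less RNA per cell cannot be told apart.

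**Figure D1:**
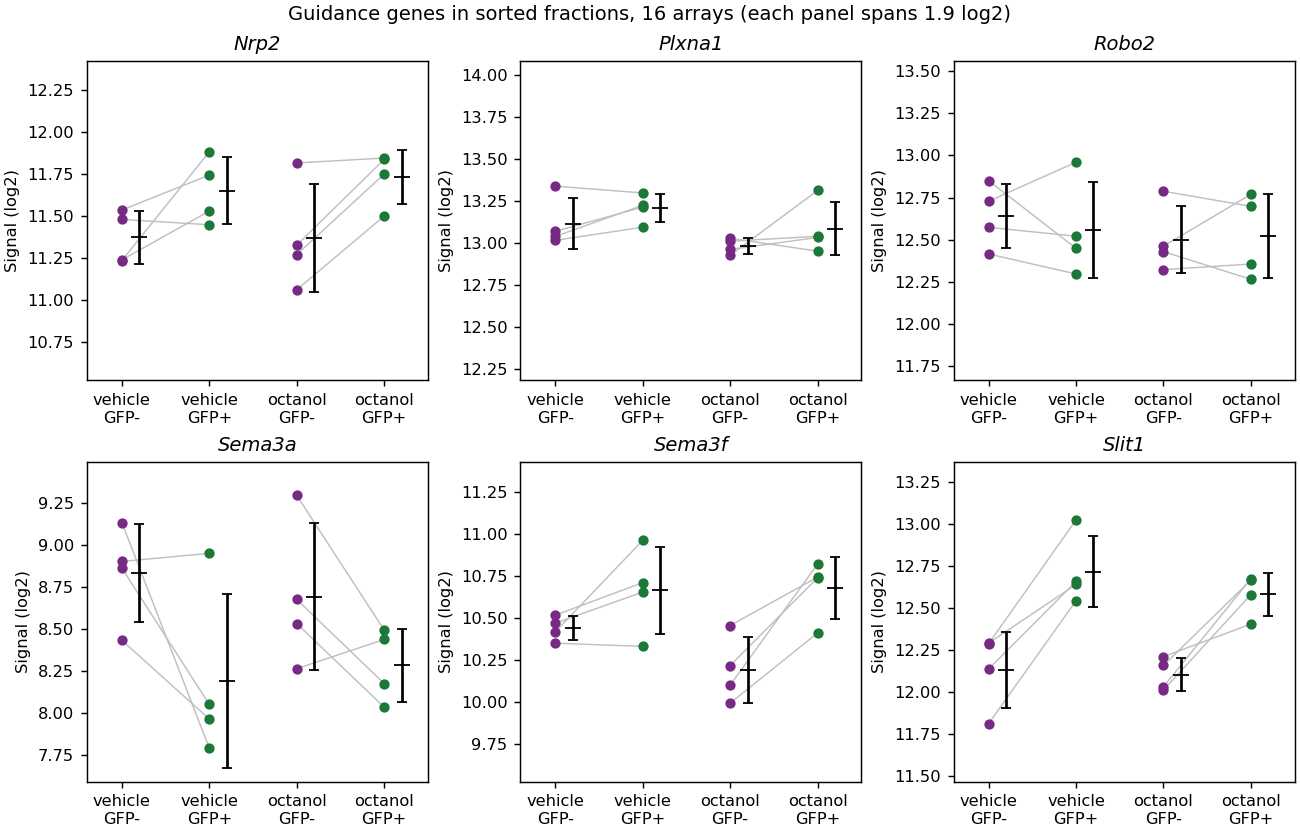
Signal (log2) of the 6 guidance genes on all 16 arrays, by group. Points are arrays, grey lines join the GFP- and GFP+ arrays taken as 1 pool, and bars are the mean ± SD of 4. The GFP+ points of Slit1 lie above every GFP- point of the same exposure on the scale as deposited; with arrays centred on odorant receptors its difference after octanol turned to -0.02.

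The calls depend on how arrays are set on a common scale. The values were used as deposited, and 3 other scalings were tried: quantile normalization, centring each array on its own median, and centring each array on the median of 1091 odorant receptor genes. The median difference over all genes was 0.15 and 0.14 log2 (vehicle and octanol) after quantile normalization, 0.46 and 0.41 with arrays centred on their median, and -0.17 and -0.36 with arrays centred on receptors. Genes higher in GFP+ cells made up 52.2% and 55.9% of calls as deposited, 65.0% and 63.4% after quantile normalization, 86.5% and 84.9% on the array median, and 12.6% and 5.78% on receptors. Centring moves every gene of an array by the same amount, so it leaves the spacing between the genes' differences as it was. As deposited, the receptor median was on average higher in GFP+ than in GFP- arrays after both exposures. Centring on receptors sets that excess to 0 and so lowers every gene's difference. That of Nrp2 went from 0.28 to -0.02 after vehicle and from 0.36 to -0.13 after octanol.

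Among the receptors, Nrp2, which binds Sema3f, had vehicle values of 11.75, 11.45, 11.88 and 11.53 log2 in the GFP+ arrays of pools 1 to 4 and 11.54, 11.48, 11.24 and 11.24 in their GFP- arrays. The groups overlapped, and 3 of 4 pools were higher in GFP+. The difference was 0.28 (SE 0.13, 95% confidence interval -0.01 to 0.57, adjusted p = 0.138, limma). After octanol the GFP+ values were 11.84, 11.85, 11.50 and 11.75 and the GFP- values 11.33, 11.82, 11.06 and 11.27. All 4 pools were higher in GFP+, pool 2 by only 0.03, and the groups overlapped because the GFP- array of pool 2 was high. The difference of 0.36 (SE 0.13, interval 0.07 to 0.65, adjusted p = 0.0599, limma) missed the threshold of 0.05. It passed when only genes above background were tested (0.0404), with a mean-variance trend (0.0349), without octanol pool 2 (0.0383) and without vehicle pool 3 (0.0448). With arrays centred on their median Nrp2 passed as higher after both exposures (0.61 and 0.64, adjusted p = 0.00249 and 0.00242), and centred on odorant receptors its differences turned to -0.02 and -0.13, neither passing.

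Plxna1 encodes plexin A1, a signalling partner of the neuropilins. Its vehicle values ran from 13.10 to 13.30 log2 in GFP+ arrays and from 13.02 to 13.34 in GFP- arrays, and its octanol values from 12.95 to 13.31 and from 12.93 to 13.03. Both pairs of groups overlapped, with 3 of 4 pools higher in GFP+ each time. The differences were 0.09 (interval -0.14 to 0.32, adjusted p = 0.533, limma) and 0.10 (interval -0.13 to 0.33, adjusted p = 0.480). The calls went opposite ways with scaling: on the array median both differences passed as higher (0.43 and 0.38, adjusted p = 0.00491 and 0.0102), and on receptors they turned to -0.21 and -0.40, of which the octanol value passed as lower (adjusted p = 0.0352).

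Robo2, a receptor for Slit ligands, read 12.45, 12.96, 12.52 and 12.30 log2 in vehicle GFP+ arrays and 12.85, 12.73, 12.57 and 12.41 in GFP- arrays. After octanol the values were 12.77, 12.70, 12.26 and 12.35 against 12.46, 12.79, 12.43 and 12.32. Pools went both ways: 1 of 4 was higher in GFP+ after vehicle and 2 of 4 after octanol. The differences were -0.09 (interval -0.36 to 0.19, adjusted p = 0.634, limma) and 0.02 (interval -0.26 to 0.30, adjusted p = 0.910). The sign turned after octanol with quantile normalization (-0.04) and after vehicle on the array median (0.25). On receptors both differences were negative and passed (-0.39 and -0.48, adjusted p = 0.0299 and 0.00714), and on the array median the octanol difference passed as positive (0.29, adjusted p = 0.0497).

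Among the ligands, Slit1 encodes a secreted Slit that binds Robo receptors. Its vehicle values were 12.66, 12.64, 13.03 and 12.55 log2 in GFP+ arrays of pools 1 to 4 and 12.14, 12.29, 12.29 and 11.81 in GFP- arrays. After octanol they were 12.68, 12.67, 12.41 and 12.58 against 12.03, 12.16, 12.21 and 12.01. Every GFP+ array lay above every GFP- array of its exposure, as did 27.7% of all genes after vehicle and 28% after octanol in one direction or the other. The difference was 0.58 after vehicle (1.5-fold, SE 0.11, interval 0.33 to 0.83, adjusted p = 0.00347, limma) and 0.48 after octanol (1.39-fold, SE 0.11, interval 0.23 to 0.73, adjusted p = 0.0104). By pool it ranged from 0.35 to 0.74 after vehicle and from 0.19 to 0.64 after octanol. The call held in 8 of 8 fits that left out 1 pool, after both exposures (highest adjusted p 0.0218 and 0.0494, limma). Leaving out a pool of the other exposure changes the spread and the adjusted p, but not the difference. On receptors Slit1 lost both calls, with differences of 0.28 (adjusted p = 0.106) and -0.02 (adjusted p = 0.890).

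Sema3f, a secreted ligand of Nrp2, read 10.71, 10.96, 10.66 and 10.33 log2 in vehicle GFP+ arrays and 10.52, 10.42, 10.47 and 10.35 in GFP- arrays. The GFP- arrays were close together, and pool 4 was the 1 pool with no excess in GFP+. The difference was 0.23 (interval -0.04 to 0.49, adjusted p = 0.177, limma). After octanol the GFP+ arrays read 10.41, 10.82, 10.74 and 10.74 and the GFP- arrays 9.99, 10.10, 10.22 and 10.46. All 4 pools were higher in GFP+, by 0.29 to 0.72, although the lowest GFP+ array lay under the highest GFP- array. The difference was 0.49 (1.40-fold, SE 0.12, interval 0.23 to 0.75, adjusted p = 0.0116, limma). It missed the threshold without octanol pool 2 (0.41, adjusted p = 0.0543). On the array median Sema3f passed after both exposures (0.56 and 0.76), and on receptors both differences turned, to -0.08 and -0.01.

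Sema3a, a secreted repellent that acts through Nrp1, had the lowest difference of the 6. Its vehicle values were 7.79, 8.95, 8.05 and 7.96 log2 in GFP+ arrays and 9.13, 8.90, 8.86 and 8.43 in GFP- arrays. The groups overlapped because GFP+ pool 2 was high, and the other 3 pools were lower in GFP+, with differences from -0.47 to -1.34. The difference was -0.64 (1.56-fold lower, SE 0.22, interval -1.12 to -0.16) with an adjusted p of 0.0495 in limma. After octanol the values were 8.44, 8.49, 8.03 and 8.17 against 8.26, 9.29, 8.53 and 8.67, 3 of 4 pools again lower, with a difference of -0.41 (SE 0.22, interval -0.89 to 0.07, adjusted p = 0.181).

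The vehicle call for Sema3a did not hold widely. It was lost in 6 of 8 fits that left out a pool: adjusted p was 0.202 without vehicle pool 1, where the difference was -0.41, 0.146 without vehicle pool 3, 0.0900 without vehicle pool 4, and 0.0542, 0.0653 and 0.0661 without octanol pools 2, 3 and 4. It was also lost without the pool term (0.0663), after quantile normalization (-0.37, adjusted p = 0.201) and on the array median (-0.31, adjusted p = 0.196). On receptors it stood at -0.94 after vehicle and -0.90 after octanol (adjusted p = 0.00277 and 0.00279). The sign was negative under each of these scalings. Sema3a was the guidance gene with the widest spread, an SD of 0.52 over the 4 vehicle GFP+ arrays and 0.44 over the 4 octanol GFP- arrays.

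In a fit added after these results were seen, both exposures were averaged over 8 pools. Slit1 was higher in GFP+ by 0.53 (SE 0.08, 8 of 8 pools, adjusted p = 2.26e-04, limma), Sema3f by 0.36 (7 of 8, adjusted p = 0.00724) and Nrp2 by 0.32 (7 of 8, adjusted p = 0.0125). Sema3a was lower, at -0.52 (6 of 8 pools, adjusted p = 0.0147). Plxna1 (0.10, interval -0.06 to 0.25) and Robo2 (-0.03, interval -0.22 to 0.16) did not pass. That fit called 30% of all genes higher and 16.9% lower, 46.9% in all, beside 3, 1 and 4 of the 6 guidance genes. Of all genes, 31.4% had the same sign in all 8 pools, as Slit1 had.

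**Figure D2:**
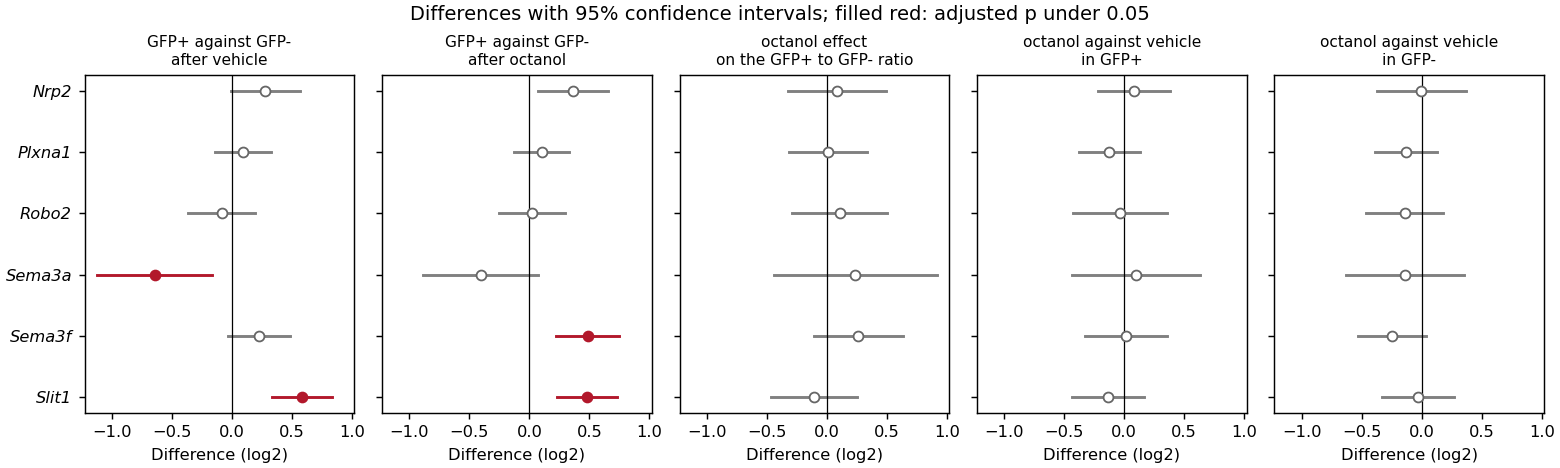
Differences (log2) of the 6 guidance genes in the 5 comparisons, with 95% confidence intervals from limma; filled red points passed an adjusted p of 0.05. As deposited, Slit1 passed in both fraction comparisons, Sema3a after vehicle and Sema3f after octanol, and none passed for octanol against vehicle; centred on receptors, Slit1 and Sema3f lost these calls and their octanol differences turned to -0.02 and -0.01.

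Octanol exposure was compared with vehicle within each fraction and on the GFP+ to GFP- ratio. In limma, 0 of 6 guidance genes and 0% of all genes passed for the ratio, for GFP+ cells and for GFP- cells. At an unadjusted p under 0.05, 4.54%, 3.73% and 4.58% of all genes passed, and 0 of the 6. The smallest adjusted p among the 6 was 0.998, 1 and 0.982. The octanol effect on the ratio was largest for Sema3f, 0.26 (interval -0.11 to 0.63, unadjusted p = 0.146), and Sema3a, 0.24 (interval -0.44 to 0.92). So Sema3f, which passed after octanol and not after vehicle, was not shown to differ between the exposures, and neither was Sema3a.

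Within GFP+ cells, the octanol minus vehicle difference ran from -0.14 (Slit1, interval -0.43 to 0.16) to 0.10 (Sema3a, interval -0.43 to 0.63). Nrp2 stood at 0.08, Sema3f at 0.01, Robo2 at -0.03 and Plxna1 at -0.12. Within GFP- cells, Sema3f had the lowest difference, -0.25 (interval -0.53 to 0.04, unadjusted p = 0.0812, limma), with means of 10.19 ± 0.20 after octanol and 10.44 ± 0.07 after vehicle (SD, n = 4). Robo2 and Sema3a stood at -0.14, Plxna1 at -0.13 and Slit1 at -0.03 there, and Nrp2 differed by less than 0.01. The values of every guidance gene overlapped between octanol and vehicle in both fractions, while 2.21% of all genes did not overlap in GFP+ cells and 2.57% in GFP- cells.

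Ratios of 2 guidance genes on the same array do not depend on centring. These are descriptions with no test. The Robo2 to Slit1 ratio was lower in GFP+ than in GFP- cells in all 4 vehicle pools, with differences of -0.92, -0.12, -0.79 and -0.85 log2 (mean -0.67 ± 0.37, SD, n = 4), and in all 4 octanol pools (mean -0.46 ± 0.13). The Nrp2 to Robo2 ratio was higher in GFP+ in 3 of 4 vehicle pools (0.36 ± 0.44) and 4 of 4 octanol pools (0.34 ± 0.22). The Nrp2 to Sema3f ratio, receptor to ligand, went both ways and averaged 0.05 ± 0.46 after vehicle and -0.12 ± 0.40 after octanol. For Robo2 and Slit1 the sign was the same in all 8 pools, whereas the ratio of Nrp2 to its ligand Sema3f shifted by less than its spread.

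**Figure D3:**
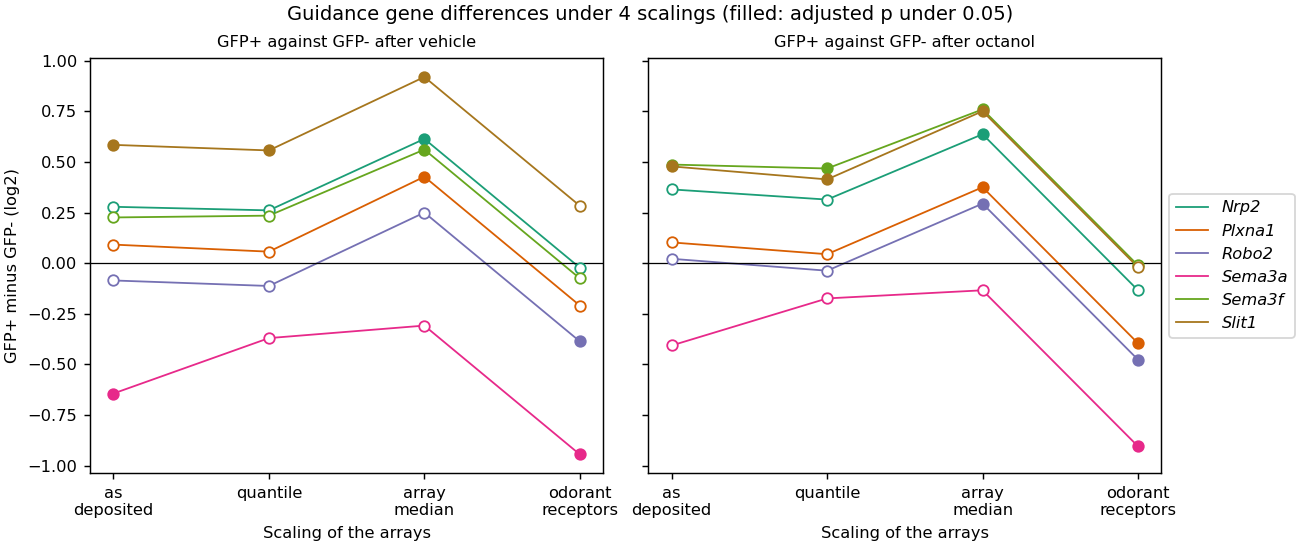
GFP+ minus GFP- difference (log2) of each guidance gene as deposited and under 3 other scalings, after vehicle and after octanol; filled points passed an adjusted p of 0.05 in limma. The lines keep their spacing between the centred scalings while their level shifts: Slit1 ran from 0.92 on the array median to 0.28 on odorant receptors after vehicle, and Nrp2, Plxna1, Robo2 and Sema3f changed sign.

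The genes whose 16 values were most like those of each guidance gene were taken by Pearson correlation over 12883 genes above background. The arrays share fractions and pools, so these values describe the data set and carry no test. Slit1 was most like Git1, Wdr47 and Manea (r = 0.950, 0.947 and 0.944), and Nrp2 most like Ncam2, Mycbp2 and Enpp5 (0.922, 0.911 and 0.900). Ncam2 encodes an adhesion molecule of ventral sensory neurons. Plxna1 was most like Sec31a (0.905), Sema3f most like Cpeb2 (0.895), Sema3a most like Socs2 (0.885) and Robo2 most like Necab3 (0.883). Arhgap21, Xxylt1, 5031425E22Rik, Lix1l, Clcn5, Olfr352, Ncstn and Peli1 completed the 3 for each, at 0.845 to 0.887.

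Other genes of the same pathways were read from lists, beginning with receptors. The list counts below, as deposited, are read against the shares of all genes called. These were 14.7% higher and 13.5% lower after vehicle, and 16.7% and 13.2% after octanol. Counts under the other scalings are read against other totals. On the array median 12759 (vehicle) and 11401 (octanol) of 19505 genes were higher. On receptors 630 and 536 genes were higher and 4387 and 8740 lower. Among 9 plexin genes, 3 were called higher and 1 lower after each exposure (list medians 0.13 and 0.25 log2, beside 0.13 and 0.14 over all genes). On the array median 7 and 6 plexins were higher and 0 lower, and on receptors 2 higher and 2 lower after vehicle and 0 and 3 after octanol. Plxnb3 differed by 0.90 and 0.86 (adjusted p = 6.85e-04 and 9.24e-04, limma), with means of 9.11 ± 0.26 against 8.21 ± 0.26 after vehicle. Plxna3, a plexin that pairs with Nrp2 in the Sema3f response, was higher by 0.76 and 0.67 (vehicle means 12.51 ± 0.05 against 11.75 ± 0.17). Plxna4, which takes part in Sema3a signalling, was higher by 0.55 and 0.49, and the octanol call was lost without octanol pool 1 or 4 (highest adjusted p 0.0673). Plxnc1, the receptor of Sema7a, was lower (-0.43 and -0.61), and neither difference passed on the array median (-0.09 and -0.34). Its vehicle call held in only 2 of 8 fits without a pool, being lost without any vehicle pool or octanol pool 2 or 4 (highest adjusted p 0.175), and reached -0.29. On receptors the calls of Plxna3 and Plxnb3 held after vehicle (0.46 and 0.60) and were lost after octanol (0.17 and 0.36), and Plxna4 turned to -0.0047 after octanol.

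Class 3 semaphorins other than Sema3a and Sema3f gave 1 call. Sema3e, which signals through plexin D1, had vehicle values of 11.56 to 11.95 log2 in GFP+ arrays and 10.40 to 11.12 in GFP- arrays, and octanol values of 11.57 to 12.24 and 10.29 to 10.86. No array of one fraction reached the other. The gene was higher by 1.00 (2.00-fold, SE 0.17, adjusted p = 0.00187, limma) and 1.32 (2.50-fold, adjusted p = 2.95e-04), in 4 of 4 pools each. This excess, past that of Slit1 in size, passed under the 3 other scalings (0.70 to 1.34 and 0.82 to 1.59). Sema3b, Sema3c, Sema3d and Sema3g averaged under background in all 4 groups.

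Of the 12 measured semaphorins of other classes, 3 were higher and 1 lower after vehicle, and 4 higher and 0 lower after octanol (the lowest difference there was -0.36; limma), while all genes were higher in 14.7% and 16.7% and lower in 13.5% and 13.2%. On the array median these counts were 8 higher and 0 lower after vehicle and 7 and 0 after octanol, and on receptors 2 and 2, and 2 and 5. Sema7a, a membrane-anchored semaphorin, was higher by 0.71 and 0.86 (adjusted p = 7.04e-04 and 1.89e-04), and Sema6c, a transmembrane one, by 0.73 and 1.00 (adjusted p = 0.00945 and 0.00147). Both passed under all 3 other scalings after both exposures. Sema6d was higher after octanol by 0.64, a call lost on receptors (0.14). After vehicle it stood at 0.23 (adjusted p = 0.208, limma). That difference passed after quantile normalization and on the array median (up to 0.57), and turned to -0.07 on receptors. Sema6a was higher by 0.42 and 0.39. The Sema6a vehicle call was lost without vehicle pool 2, 3 or 4 (highest adjusted p 0.127), and its octanol call held only without vehicle pool 1 or 2; on receptors its octanol difference turned to -0.10. Sema4g was lower after vehicle (-0.57, adjusted p = 0.00606) and stood at -0.14 after octanol (adjusted p = 0.396), where it turned to 0.13 on the array median; its vehicle call was lost there (-0.23).

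The slit and robo list of 7 genes gave 1 higher after vehicle, Slit1, and 2 higher after octanol, Slit1 and Robo1, and 0 lower in limma (the lowest differences were -0.09 and 0.02). Robo1, another receptor for Slits, was higher by 0.63 after octanol (SE 0.12, adjusted p = 0.00386), with 10.85 ± 0.32 log2 in GFP+ arrays and 10.22 ± 0.40 in GFP- arrays. After vehicle it stood at 0.35 (4 of 4 pools, adjusted p = 0.0568), which passed after quantile normalization (0.36) and on the array median (0.69), and on receptors its octanol call was lost (0.13). Of the 7 slits and robos, 5 and 6 were higher and 0 lower on the array median, and 0 higher and 1 and 3 lower on receptors. Robo3 lay under background on all 16 arrays and Slit2 on 15 of 16.

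Of 4 semaphorin co-receptors, 0 were higher and 1 lower after vehicle and 1 was higher and 1 lower after octanol (medians 0.09 and 0.21). Nrcam, an adhesion co-receptor of neuropilins, differed by -1.14 and -0.86 (adjusted p = 0.00147 and 0.00748, limma), and since GFP+ arrays all lay under background, the gene was lower by at least 1.73-fold and 1.51-fold. L1cam, another such co-receptor, was higher after octanol by 0.45, a call lost without octanol pool 1 or 2 (highest adjusted p 0.115) and turned to -0.05 on receptors. Of 15 semaphorin signalling genes, 4 were higher and 6 lower after vehicle, and 2 higher and 5 lower after octanol (medians -0.14 and -0.05). On the array median the signalling list had 6 higher and 5 lower after vehicle and 6 and 4 after octanol, and on receptors 0 higher and 8 and 11 lower. Dpysl3, a collapsin response mediator that acts on the growth cone cytoskeleton, averaged 13.15 ± 0.09 in vehicle GFP- arrays and 9.37 ± 0.34 in GFP+ arrays, a difference of -3.78 (13.7-fold lower, adjusted p = 2.48e-07). After octanol it was -3.16 (8.96-fold lower).

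Mical1, an actin-oxidising enzyme that binds plexins, was lower (-2.29 and -2.37), and as background was passed by 2 of 4 GFP+ arrays each time, the bounds were at least 4.39-fold and 5.06-fold lower. The kinase gene Fes (-1.82 and -1.53) was at least 2.46-fold and 2.1-fold lower, and Rnd1, a plexin-binding GTPase (-1.22 and -1.40), at least 1.5-fold and 1.96-fold lower. The calls of Nrcam, Dpysl3, Mical1, Fes and Rnd1 held under the 3 other scalings after both exposures. The higher genes of that list were named after their values were seen. After vehicle they were Farp2 (0.85) and Mical3 (0.72), whose calls held in 8 of 8 fits without a pool, Mical2 (0.41), lost without vehicle pool 1 or 4, and Cdk5r1 (0.34), lost without vehicle pool 1, 2 or 4. After octanol they were Mical2 (0.51), held in 8 of 8, and Farp2 (0.59), held in 2 of 8, those without vehicle pool 3 or octanol pool 2. On receptors all 6 of these calls were lost.

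**Figure D4:**
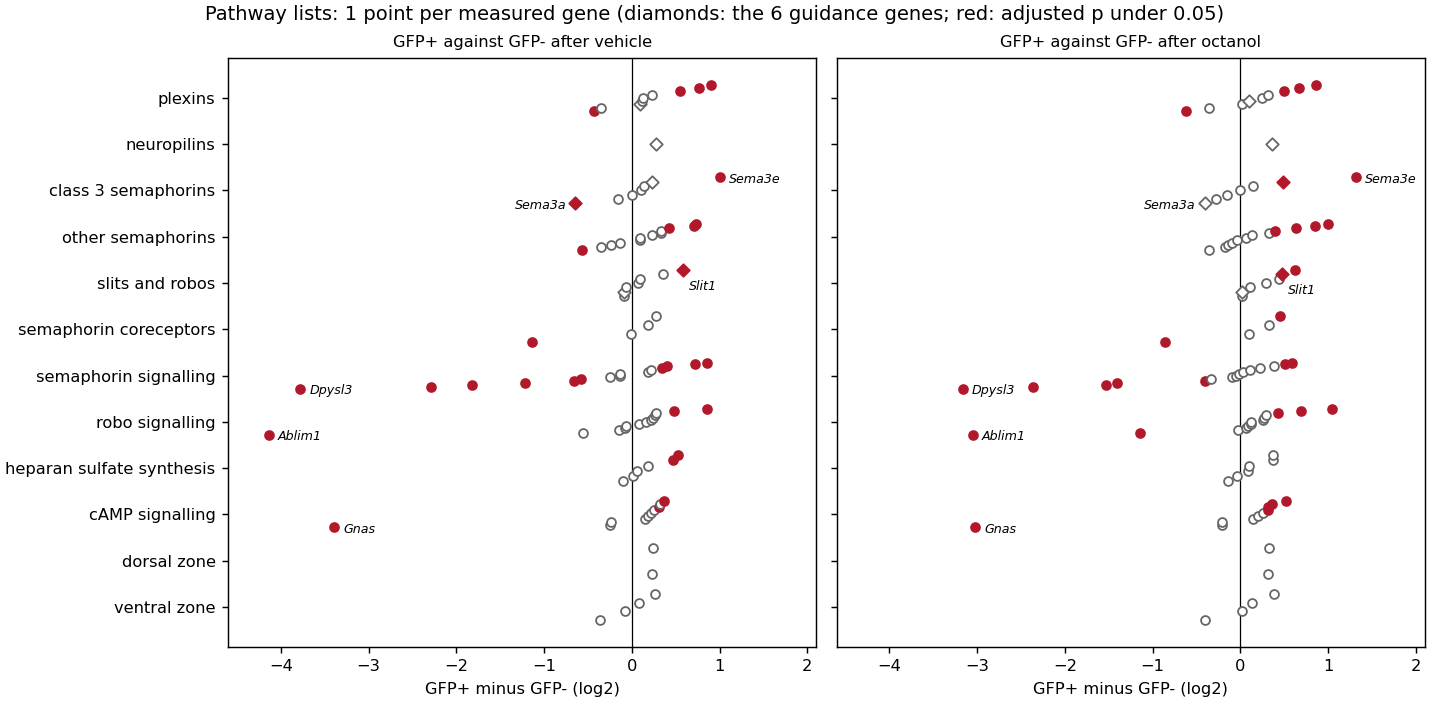
GFP+ minus GFP- difference (log2) of every measured gene in 12 pathway and zone lists, as deposited; diamonds are the 6 guidance genes, red points passed an adjusted p of 0.05 in limma. Sema3e stands highest after both exposures, and Dpysl3, Gnas and Ablim1 lie below -3; these 4 keep their sides under the 3 other scalings, whereas Slit1 after octanol turned to -0.02 on receptors.

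Of 13 genes that act downstream of Robo receptors, 2 were higher and 1 lower after vehicle and 3 higher and 2 lower after octanol (medians 0.17 and 0.12). With median centring these were 9 higher and 1 lower, and 9 and 2, and on receptors 1 and 3, and 1 and 6. Ablim1, an actin-binding gene, differed by -4.14 and -3.05 while every GFP+ array lay under background, which gives bounds of at least 5.33-fold and 3.11-fold lower. Cables1, which links Robo to Abl kinase, was higher by 0.85 and 1.04 (adjusted p = 0.00193 and 5.24e-04, limma), and Srgap1, a Slit-Robo GTPase-activating gene, by 0.48 and 0.70. Srgap3 had a fitted difference of -1.15 after octanol, but its mean lay under background in both octanol groups. On receptors the call of Cables1 held and that of Srgap1 was lost (0.18 and 0.20). Of 6 heparan sulfate synthesis genes, which make the sugar chains that Slits bind, Hs2st1 (0.53) and Hs6st1 (0.47) were higher after vehicle and 0 after octanol in limma (0.37 and 0.38, adjusted p = 0.0924 and 0.0808; on receptors -0.13 and -0.12). Of the 6, 5 and 3 were higher on the array median, and 0 and 4 lower on receptors. Hs2st1 lost its call without vehicle pool 2, 3 or 4 (highest adjusted p 0.0965), and Hs6st1 in 6 of 8 fits, all but those without octanol pool 1 or 3 (highest 0.138).

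The cAMP signalling genes that link odorant receptors to guidance genes were 2 higher and 1 lower of 10 after vehicle and 4 higher and 1 lower after octanol (medians 0.20 and 0.23). With arrays centred on their median 7 were higher and 1 lower after each exposure, and on receptors 0 higher and 2 and 5 lower. Gnas, the stimulatory G protein subunit found in immature sensory neurons, was lower, at -3.39 (10.5-fold, adjusted p = 1.21e-06, limma) and -3.02 (8.13-fold), with 12.25 ± 0.08 in vehicle GFP- arrays and 8.86 ± 0.32 in GFP+ arrays. Gnal, its counterpart in mature neurons, did not pass (0.15 and 0.20, adjusted p = 0.211 and 0.110). Adcy3, the adenylyl cyclase of olfactory cilia, was higher by 0.30 and 0.32, and Prkaca, a protein kinase A subunit, by 0.36 and 0.31. Prkar2a (0.52) and Prkacb (0.36) passed after octanol. Leaving out a pool ended the call of Adcy3 in 3 of 8 fits after each exposure (vehicle pool 1, 3 or 4; octanol pool 1, 2 or 4), of Prkaca in 1 and 3 (vehicle pool 3; octanol pool 1, 2 or 4) and of Prkacb in 4 (vehicle pool 4; octanol pool 1, 2 or 4). Every higher call of this list was lost on receptors: the octanol differences of Adcy3, Prkaca and Prkacb turned to -0.18, -0.19 and -0.14, that of Prkar2a was 0.02, and the vehicle differences of Adcy3 and Prkaca were 0.0038 and 0.06. Adcy3 also lost both calls after quantile normalization (0.19 and 0.21).

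Genes that mark the zones of the epithelium did not pass after either exposure in limma on the values as deposited, 0 of 2 dorsal and 0 of 4 ventral. On the array median 2 of 2 dorsal and 2 of 4 ventral genes were higher after both exposures, and on receptors 0 dorsal genes passed while 1 of 4 ventral genes was lower after vehicle and 3 of 4 after octanol. The dorsal markers Nqo1 and Acsm4 stood at 0.23 and 0.24 after vehicle and 0.32 and 0.33 after octanol. Of the ventral markers, Ncam2 stood at 0.26 and 0.38, Nfia at -0.37 and -0.40, Nfib at -0.08 and 0.02, and Nfix at 0.08 and 0.13. At an unadjusted p under 0.05, Nfia would count after vehicle and Nqo1, Acsm4, Ncam2 and Nfia after octanol. Centred on receptors Nqo1, Acsm4, Ncam2 and Nfix turned negative after both exposures, and Nfib did after octanol. The octanol effect on the ratio passed for no gene of these pathway lists (adjusted p = 0.998 for each, limma), so a call after 1 exposure and not the other was not shown to differ.

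Markers of several other cell types moved with the same contrast, and those of others did so little or went both ways. Lower in GFP+ cells after each exposure were 4 of 4 dendritic, 3 of 4 lymphoid, 3 of 4 Bowman gland, 2 of 6 endothelial and 1 of 3 pericyte markers. Of 5 ensheathing glia markers, 1 was higher and 1 lower after vehicle, and 0 and 1 after octanol. Of 4 fibroblast markers, 1 was lower after vehicle and 0 after octanol. Of all genes, 13.5% and 13.2% were lower. Of the 7 immature neuron markers, Gap43 and Gng8 differed by -2.83 and -5.03 after vehicle and by -2.23 and -4.18 after octanol, and Stmn1 and Sox11 were lower as well. Dcx, Ncam1 and Tubb3 stood at 0.24, 0.24 and 0.06 after vehicle and 0.28, 0.31 and 0.06 after octanol, where Ncam1 passed, and all 3 turned negative on receptors after both exposures. The signals of the 7 immature neuron markers summed to 17.25 to 17.60 log2 on vehicle GFP+ arrays and 17.42 to 17.83 on GFP- arrays, and to 17.28 to 17.57 and 17.34 to 17.67 after octanol. Signals are summed before the log, so the brightest markers of a list weigh most. Near-equal sums therefore do not mean near-equal numbers of immature neurons. The 6 myeloid markers, Ptprc and Lyz2 among them, summed to 10.38 to 11.05 on vehicle GFP+ arrays against 15.99 to 16.66 on GFP- arrays, and to 10.37 to 12.12 against 16.04 to 16.96 after octanol. The 4 neutrophil markers summed to 9.14 to 10.32 against 17.60 to 18.49 and to 10.31 to 13.11 against 18.14 to 18.87. Sustentacular markers summed to 15.01 to 15.92 against 16.45 to 16.76 and to 15.18 to 16.63 against 16.17 to 16.90. The part of these cells in the differences of Sema3a, Slit1, Sema3f, Dpysl3, Gnas, Ablim1 and the other genes above was not tested.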

How the data were processed

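RNA of sorted olfactory mucosa cells, 50 to 100 ng a sample, was hybridised to 16 Clariom S mouse arrays as biotin-labelled cRNA, per the labels. The authors deposited log2 signals made with Affymetrix Expression Console (version and options not given in the sources used here). The values ran from 2.22 to 18.70, the array medians lay between 7.42 and 7.70, and no further normalization was applied. Arrays carry no read depth, and their number limits the precision.

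Of 28846 probe sets, 19572 had 1 gene symbol in the platform annotation table and 9274 had none or were not listed. The probe set with the highest mean stood for a gene, which left 19505 genes and set 67 probe sets aside. Nrp1 was not analysed here. Gene names were matched by Entrez identifier to a RefSeq table (GRCm38.p6).

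Fractions were compared in limma 3.58.1 (R 4.3.3) over all 16 arrays, each pool being a fixed block, and exposures within each fraction over 8 arrays, both with 6 residual degrees of freedom. P-values were adjusted by Benjamini-Hochberg over all 19505 genes in each of 5 comparisons, with a threshold of 0.05. For fractions they rest on how much the GFP+ to GFP- difference varied from pool to pool, with 1 estimate shared by both exposures. For exposures they rest on the spread between pools of mice. The residuals of the fractions taken as 1 pool correlated at 0.0779 to 0.222, above 0.1 in 6 of 8 pools (mean 0.16). Arrays of the same number and fraction but the other exposure correlated as much (0.0582 to 0.332, mean 0.181, above 0.1 in 6 of 8), so these values do not single out the pools, and the pairing rests on the count of mice. No 2 arrays held the same values. "At least" folds raised each value under background to background before the group means were compared.

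On simulated data with 200 changed genes, the vehicle fraction comparison recovered 12% of differences of 0.5 log2, 82% of 1, 98% of 2 and 100% of 4, and octanol against vehicle in GFP+ cells 20%, 76%, 100% and 100%. The measured fractions had 28.2% and 29.9% of genes called, so their cut-off was less strict than the simulated one. The simulated exposure comparison held no differences between pools, which the measured one does, so its recovery may be too high. Alternatives were the scalings, the pool term, the filter on dim genes, a mean-variance trend, the choice of probe set and leaving out each pool. For every fraction difference, leaving out a pool of the other exposure moves only the spread and the adjusted p, so such fits do not test the difference itself. The guidance genes and pathway lists were chosen with earlier results of these data known. Pathway genes were named by rule: up to 4 a list and fraction comparison, those of largest difference past the threshold with the same sign in all 4 pools; others named are said to be so or stand beside the other exposure's call. Zone and marker genes were named as list members, and the 3 most like genes by correlation.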

Additional observations from a re-analysis of the deposited data

Results flagged for a closer look

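Of 24 groups of 4 arrays checked, 6 guidance genes in 4 groups, 1 held an array far from the others. For Plxna1, the vehicle GFP- array of pool 1 read 13.34 log2, and the next highest of its group read 13.07. That gap is 0.835 of the group's whole range, just above Dixon's 95% critical value for 4 values, and chance passes it in about 1 of 20 groups. The Plxna1 difference after vehicle passed in none of the fits that left out a pool.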

How the results depend on the processing

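Over the guidance genes' values in all alternatives, 386 kept their direction and side of the threshold, 49 changed sign, 16 gained a call and 11 lost one. A value that changed sign was counted only as such, also where it gained or lost a call. The totals include the ratio and exposure comparisons, where 0 genes passed as deposited, so keeping the side of the threshold says little there. Each measured guidance gene has 1 probe set, so the choice of probe set could not change its difference. With arrays centred on odorant receptors, 630 genes were higher and 4387 lower after vehicle and 536 and 8740 after octanol; of the guidance genes 0 were higher and 2 (vehicle) and 3 (octanol) lower. Signs turned there for Nrp2 (-0.022 and -0.13), Plxna1 (-0.21 and -0.40), Robo2 after octanol (-0.48), Sema3f (-0.075 and -0.011) and Slit1 after octanol (-0.020); for octanol in GFP- cells for Nrp2 (0.15), Plxna1 (0.020), Robo2 (0.012), Sema3a (0.013) and Slit1 (0.12); for the ratio for Nrp2 (-0.11), Plxna1 (-0.19) and Robo2 (-0.090); and in GFP+ cells for Sema3f (-0.029). Centred on the array median, 12759 and 11401 genes were higher, with 4 and 5 guidance genes higher and 0 lower after vehicle; signs turned for Robo2 after vehicle (0.25), Nrp2 and Slit1 in GFP- cells (0.040 and 0.015), Sema3f in GFP+ cells (-0.0052) and the Plxna1 ratio (-0.052). After quantile normalization 4561 genes were higher after vehicle and 0 guidance genes lower, and signs turned for Robo2 after octanol (-0.037), Nrp2 and Slit1 in GFP- cells (0.043 and 0.017) and the Plxna1 ratio (-0.013). Centring shifts the differences of all genes in a comparison by the same amount, so differences smaller than an opposite shift turn sign. Why the scalings differ in level was not tested. With both exposures averaged, an alternative added after seeing the data, 5860 genes were higher, with 3 guidance genes higher and 1 lower, and Robo2 stood at -0.032. With no replicate block (the pool term), 0 guidance genes were lower after vehicle; the replicate block in the exposure fits gave 0 calls.

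Leaving out 1 pool gave 1724 to 2882 genes higher after vehicle (1836 without vehicle pool 1 and 1724 without pool 4) and 1799 to 3115 after octanol (1799 without octanol pool 1 and 1970 without pool 4). Guidance genes lower after vehicle numbered 0 to 1, and those higher after octanol 2 to 3. Robo2 ranged from -0.19 to 0.020 after vehicle and -0.074 to 0.084 after octanol, the Nrp2 ratio from -0.018 to 0.21 and the Plxna1 ratio from -0.084 to 0.071. In GFP- cells the octanol difference ranged from -0.15 to 0.10 for Nrp2, -0.34 to 0.0017 for Sema3a and -0.14 to 0.024 for Slit1, and in GFP+ cells from -0.12 to 0.10 for Robo2, -0.036 to 0.35 for Sema3a and -0.10 to 0.11 for Sema3f. At 4 arrays a group, simulated differences of 0.5 log2, near that of Slit1, were recovered in 12% to 16% of cases between fractions. Only 200 genes were changed there, so the simulated cut-off was stricter than the one Slit1 met.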
